A study of Homo sapiens with 6 samples.

Results

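The genes described here are SFPQ and 8 others listed as paraspeckle components, MALAT1 among them, measured in U251 cells with or without 6-shogaol. SFPQ, NONO, PSPC1, HNRNPK, MATR3, RBM14 and TARDBP encode RNA-binding proteins, and NEAT1 and MALAT1 are long noncoding RNAs. Members were taken by gene symbol from the deposited FPKM table, and the 9 symbols matched 10 of its 60612 entries, since MATR3 has 2. All 10 entries passed the filter on low counts, which left 19279 genes for testing. The list was chosen by the measured difference between treated and control libraries, in which SFPQ stood out, so that difference is given for the members as a description, with no p.

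U251 is a long-used human cell line grown from an astrocytic glioma. The control group was wild-type U251 kept for 24 h without 6-shogaol (3 libraries). The other group was the same wild-type line given 6-shogaol for 24 h (3 libraries), at a dose that the labels write as 60 with the unit "μm". 6-shogaol is a pungent compound that forms when ginger is dried. The labels do not say whether replicates were separate cultures, and p-values therefore reflect only how far these libraries differ, possibly for technical reasons. In bulk libraries, fewer cells expressing a gene and less RNA per cell cannot be told apart.

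Paraspeckles are nuclear bodies built on the long isoform of NEAT1. That RNA is coated by a small family of proteins, SFPQ, NONO and PSPC1, known as DBHS proteins, which pair with each other, bind RNA and DNA, and act in transcription, splicing and the nuclear retention of edited RNA. NEAT1 is made as a short polyadenylated isoform and a long one whose end is cut by RNase P, and the gene-level counts used here do not separate them. MALAT1, the neighbouring gene on chromosome 11, makes an RNA that gathers in another nuclear body, the nuclear speckle. It is counted among the paraspeckle genes below only because the list holds it.

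Totals ran from 43516840 to 60018999 counts per library. All 8 glial markers had counts in every library and summed to 6940 to 11100 CPM (counts scaled to library size with TMM factors), most of it VIM, while AQP4 and S100B were the scarcest, AQP4 at no more than 0.445 CPM. Of the 8, edgeR called 2 lower and 0 higher. GFAP, the astrocyte intermediate filament, fell from 27.3 ± 5.73 to 8.88 ± 0.424 CPM (mean ± SD, n = 3, edgeR adjusted p = 0.00655), and NES, a filament of neural progenitors, fell from 772 ± 4.77 to 577 ± 64.1 CPM (edgeR adjusted p = 0.0484). CD44, a surface receptor, stood at 240 ± 7.75 and 285 ± 22.6 CPM without a call, and VIM had a log2 fold change of 0.05. VIM values were 7020, 6870 and 6930 CPM in controls and 5600, 6250 and 9760 CPM with 6-shogaol, on both sides of the controls. The remaining markers were lower, so that 6 of the 8 had log2 fold changes below 0 (median -0.377). Uncalled among these were SOX2 (-0.33), SOX9 (-0.24) and the scarce AQP4 (-0.89) and S100B (-0.64). The part of these markers in the results below was not tested. The 6 markers of leukocytes, endothelium, epithelium, neurons and oligodendrocytes summed to 1.95 to 3.01 CPM, with 0 to 3 of them at 0 in a library.

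Of the 9 paraspeckle genes, 1 was called lower with 6-shogaol and 0 higher in the fit across all genes (quasi-likelihood test of edgeR, threshold of 0.05 on the Benjamini-Hochberg adjusted p). That gene was SFPQ. In the same fit 3.38% of all tested genes were called, 1.71% lower and 1.67% higher. SFPQ stood at 0.549 times its control level by the fitted fold change, and the other 9 entries had log2 fold changes between -0.17 and 0.41. The members SFPQ and HNRNPK had groups that did not overlap in CPM, as did 27.9% of all tested genes. The median log2 fold change was -0.04 over the 10 entries and -5.32e-05 over all tested genes.

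**Figure D1:**
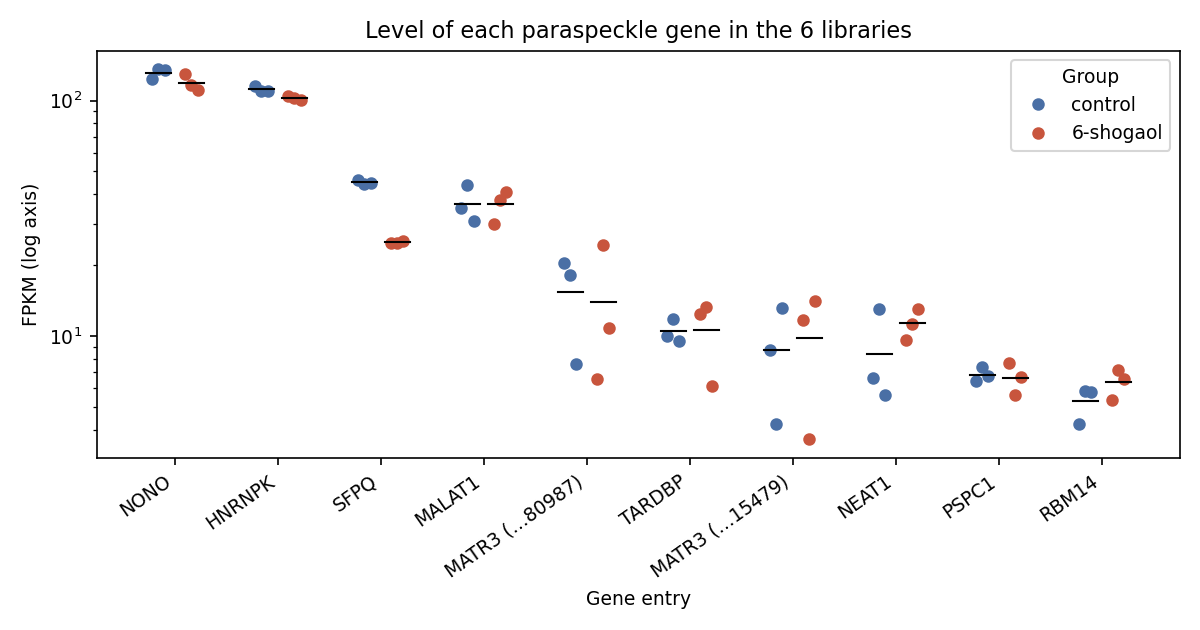
FPKM (log axis) of each of the 10 gene entries in each library, controls in blue and 6-shogaol libraries in red, with a black line at each group's mean. SFPQ is the entry whose groups lie farthest apart, at 44.1 to 45.8 in controls and 24.7 to 25.4 with 6-shogaol, while both MATR3 entries, NEAT1 and TARDBP scatter widely within a group.

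SFPQ, the largest DBHS protein, which also binds double-stranded DNA and splicing complexes, is encoded on chromosome 1 from 35176378 to 35193145 on the minus strand (ENSG00000116560, coordinates as deposited, GRCh38). Its FPKM was 45.8, 44.1 and 44.8 in control replicates 1, 2 and 3 and 24.7, 24.9 and 25.4 in 6-shogaol replicates 1, 2 and 3. Every treated library lay below every control, and the spread within a group was small, with a coefficient of variation of 1.92% in controls and 1.37% with 6-shogaol. Raw counts were 21000, 22873 and 23540 in controls and 11937, 11059 and 9653 with 6-shogaol. On the CPM scale the level went from 397 ± 8.35 to 218 ± 5.68 (mean ± SD, n = 3). The fitted log2 fold change was -0.86 (SE 0.06). Leaving out any 1 library gave log2 fold changes from -0.88 to -0.84. Of the 11720 tested genes whose mean reached 5 CPM, 104 had a lower log2 fold change than SFPQ.

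NONO, the X-linked DBHS partner of SFPQ, was the most abundant member per length. It stood at 123, 136 and 134 FPKM in control replicates 1, 2 and 3 and at 130, 116 and 111 FPKM with 6-shogaol. The groups overlapped through 6-shogaol replicate 1, which lay above control replicate 1, and the log2 fold change was -0.16 (SE 0.07). PSPC1, the third DBHS protein, was the scarcest of the family. Its FPKM was 6.42, 7.37 and 6.73 in controls and 7.70, 5.61 and 6.67 with 6-shogaol. The treated values lay on both sides of the controls, with a log2 fold change of -0.06 (SE 0.12).

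The make-up of the DBHS family can be read within a library because FPKM is per length. SFPQ made up 26.1%, 23.5% and 24.1% of the summed SFPQ, NONO and PSPC1 FPKM in control replicates 1, 2 and 3. With 6-shogaol it made up 15.2%, 17.0% and 17.8%, each below every control. The ratio of SFPQ to NONO was 0.343 ± 0.025 in controls and 0.212 ± 0.0196 with 6-shogaol, and that of PSPC1 to NONO was 0.0522 ± 0.00208 and 0.056 ± 0.00654 (mean ± SD, n = 3). These ratios restate the same SFPQ values and add no evidence of their own.

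**Figure D2:**
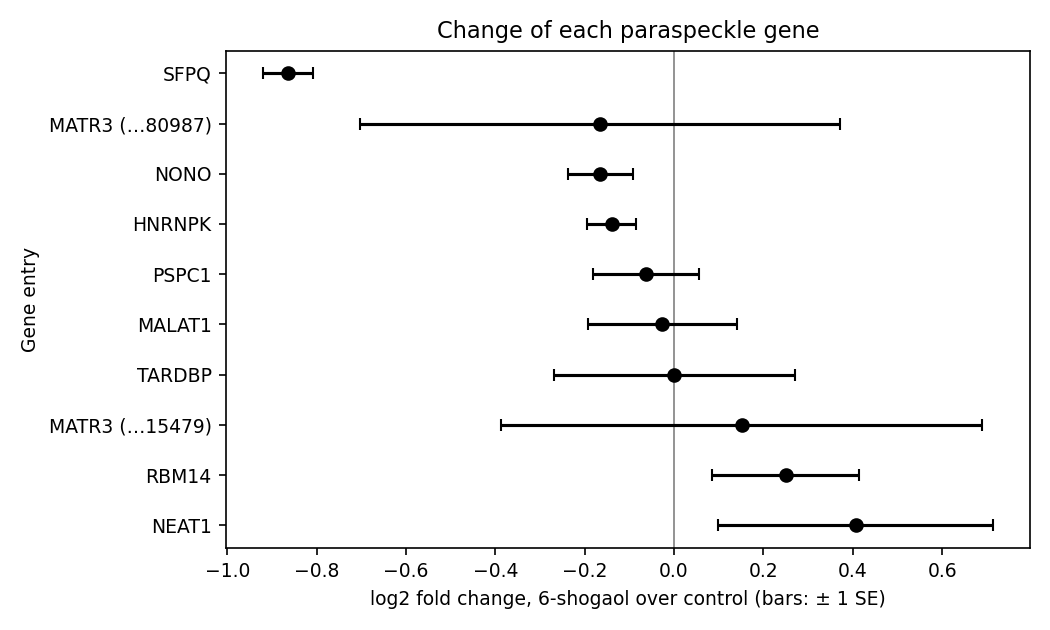
Fitted log2 fold change (6-shogaol over control) of each of the 10 gene entries, with bars of 1 SE. SFPQ lies at -0.86, apart from the others, which run from -0.17 to 0.41, and the MATR3 entries have the widest bars.

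HNRNPK, a poly(C)-binding protein that is needed for paraspeckle formation and favours the long NEAT1 isoform, was nearly as abundant as NONO. Its FPKM was 115, 110 and 110 in control replicates 1, 2 and 3 and 105, 103 and 100.4 with 6-shogaol. All treated libraries lay below all controls, but by a small amount, with a log2 fold change of -0.14 (SE 0.05). The pseudogene HNRNPKP4 held 1.85% to 3.49% as many counts as HNRNPK, and reads of near-identical copies may be shared between them. HNRNPKP4 itself had 1146, 1155 and 807 counts in controls and 803, 579 and 914 with 6-shogaol (log2 fold change -0.24, SE 0.26), and HNRNPKP2 had 21 to 38 counts per library (log2 fold change 0.01). The NONO pseudogene NONOP2 held at most 0.142% as many counts as NONO (log2 fold change 0.04), and the antisense RNA PSPC1-AS2 held 17.3 counts on average (log2 fold change -0.43, SE 0.54). HNRNPK also shares 6.04% of its exonic bases with an antisense RNA of 33 counts on average, and the strand used in counting is not given in the sources used here.

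RBM14, a coactivator with a prion-like domain that paraspeckle assembly requires, had the lowest FPKM in controls. It stood at 4.23, 5.86 and 5.77 FPKM in control replicates 1, 2 and 3 and at 5.37, 7.20 and 6.57 FPKM with 6-shogaol. Treated replicate 1 lay inside the control range and the others lay above it, with a log2 fold change of 0.25 (SE 0.16). RBM14-RBM4, a readthrough transcript that shares 11.0% of the RBM14 exonic bases, took a varying part of the reads. RBM14 held 56.4%, 70.5% and 58.6% of the pair's counts in controls and 55.4%, 86.8% and 65.6% with 6-shogaol. The summed CPM of both entries was 58.2, 64.6 and 75.4 in controls and 72.3, 64.1 and 76.3 with 6-shogaol, so the sums overlapped. RBM14-RBM4 alone had a log2 fold change of -0.18 (SE 0.44).

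MATR3 encodes matrin 3, a nuclear matrix protein that binds RNA, acts with SFPQ and NONO in retaining edited RNA, and is mutated in some cases of amyotrophic lateral sclerosis. The table holds it as 2 entries on the plus strand of chromosome 5: ENSG00000280987 from 139273752 to 139331671, and ENSG00000015479 from 139293674 to 139330441. In GENCODE 29 the longer-spanning ENSG00000280987 shares 80.9% of its exonic bases with ENSG00000015479, and 9.85% with the noncoding host gene SNHG4, which lies within its span. RefSeq gives MATR3 as 1 gene with 2 starts, 1 a short way inside the beginning of each entry. The sequences before these starts are shown because the entries begin at different places. Each is 250 bases from GRCh38.p14, plus strand, with motif matches in capitals.
MATR3 first start, chr5:139273851-139274100: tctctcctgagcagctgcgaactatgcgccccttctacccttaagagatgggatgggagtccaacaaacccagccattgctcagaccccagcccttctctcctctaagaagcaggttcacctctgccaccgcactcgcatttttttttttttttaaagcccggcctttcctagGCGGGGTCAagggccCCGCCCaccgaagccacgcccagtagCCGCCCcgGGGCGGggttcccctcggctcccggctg
MATR3 second start, chr5:139293490-139293739: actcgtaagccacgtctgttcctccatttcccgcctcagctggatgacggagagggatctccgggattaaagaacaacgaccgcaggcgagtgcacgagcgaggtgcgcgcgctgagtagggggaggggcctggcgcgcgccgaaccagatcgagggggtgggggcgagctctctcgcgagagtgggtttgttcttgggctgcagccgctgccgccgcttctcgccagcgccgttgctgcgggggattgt
The 10 motifs searched, on both strands, were the CCAAT box (CCAAT), the GC box (GGGCGG), the heat shock element (GAANNTTC), the antioxidant response element (TGACNNNGC), the E-box (CACGTG), an ETS site (CCGGAAGT), an ATF4 site (TGATGNAA), the CRE (TGACGTCA), the NRF1 site and the cell cycle homology region (TTTGAA). The first start held 3 GC boxes and 1 antioxidant response element, which are present in 42.6% and 10.9% of 35116 promoters of the same length, and these matches do not overlap each other. The second start held none of the 10. A match is a string of letters and no evidence of binding. RefSeq promoters were found for 7 of the 9 members, and SFPQ and NEAT1 were not among them.

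The counts of the 2 MATR3 entries were divided unevenly from library to library. ENSG00000015479 held 44.6%, 30.6% and 76.7% of MATR3 counts in control replicates 1, 2 and 3 and 77.2%, 22.2% and 71.3% with 6-shogaol. Low and high shares occurred in both groups. FPKM of ENSG00000015479 was 8.68, 4.22 and 13.2 in controls and 11.7, 3.65 and 14.1 with 6-shogaol. FPKM of ENSG00000280987 was 20.5, 18.2 and 7.58 in controls and 6.56, 24.4 and 10.8 with 6-shogaol. Fitted separately the entries had log2 fold changes of 0.15 (SE 0.54) and -0.17 (SE 0.54). Summed before the fit, a step added after the values were seen, MATR3 stood at 281, 200 and 245 CPM in controls and 211, 237 and 280.5 CPM with 6-shogaol, with a log2 fold change of 0.01 (SE 0.15). The sum had a much smaller error than either entry, and its groups overlapped over most of their range.

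**Figure D3:**
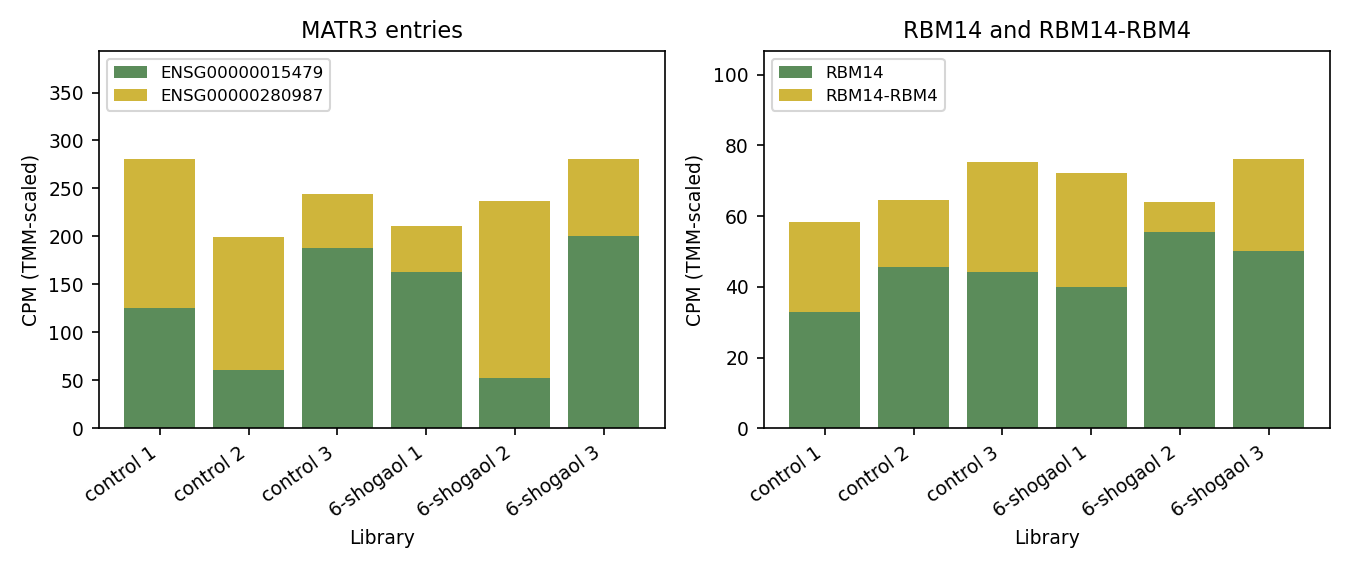
CPM in each library of the 2 MATR3 entries (left) and of RBM14 and the readthrough RBM14-RBM4 (right), stacked from 0. The division within each bar changes between libraries of the same group, while the height of the MATR3 bars stays between 200 and 281 CPM and that of the RBM14 bars between 58.2 and 76.3 CPM.

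TARDBP encodes TDP-43, an RNA-binding protein that is found in paraspeckles, controls the choice of NEAT1 isoform and forms aggregates in amyotrophic lateral sclerosis. Its FPKM was 9.99, 11.9 and 9.57 in control replicates 1, 2 and 3 and 12.4, 13.3 and 6.16 with 6-shogaol. Treated replicates 1 and 2 lay above all controls and replicate 3 below all of them, so that the group means were close (66.4 ± 8.06 and 66.4 ± 24.4 CPM) and the log2 fold change was 0.00085 (SE 0.27). Without 6-shogaol replicate 3 it was 0.27, and without 6-shogaol replicate 2 it was -0.21. AL109811.4, a gene model on the same strand, shares 1760 exonic bases with TARDBP and held 63.2 counts on average, against 1685 to 4413 for TARDBP.

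NEAT1, the RNA scaffold of the paraspeckle, lies on chromosome 11 from 65422774 to 65445540. Its FPKM was 6.64, 13.0 and 5.64 in control replicates 1, 2 and 3 and 9.65, 11.3 and 13.1 with 6-shogaol. All treated libraries lay above control replicates 1 and 3, but control replicate 2 was nearly as high as the highest treated library. The log2 fold change was 0.41 (SE 0.31). It was 0.87 without control replicate 2, 0.18 without control replicate 3 and 0.26 without control replicate 1, and NEAT1 was not called in any of these fits. MALAT1, from 65497688 to 65506469 on the same strand, had an FPKM of 34.9, 43.6 and 30.8 in controls and 29.9, 37.9 and 41.1 with 6-shogaol. The MALAT1 groups overlapped almost fully, with a log2 fold change of -0.03 (SE 0.17).

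The measured levels of the noncoding RNAs varied together across libraries. Over the 6 libraries, log2 CPM of NEAT1 and MALAT1 had a Pearson's r of 0.724 and a Spearman's rho of 0.829, and r was 0.978 without control replicates 1 and 3, the libraries farthest from the NEAT1 median. With each group's mean subtracted r was 0.892. This is 1 of 36 pairs of members examined, the points share library and depth, and the value is a description. Libraries were made with an mRNA-Seq kit, and the part of RNA capture in this co-variation was not tested. Some other pairs had values of larger size by 1 of these measures. For SFPQ and HNRNPK r was 0.929 over the 6 libraries and 0.397 with group means subtracted. For SFPQ and NONO it was 0.716 over the 6 libraries and -0.958 with group means subtracted. For NONO and summed MATR3 it was -0.627 over the 6 libraries and -0.929 with group means subtracted. The ratio of NEAT1 to MALAT1 FPKM was 0.190, 0.297 and 0.183 in control replicates 1, 2 and 3 and 0.323, 0.297 and 0.318 with 6-shogaol. The ratio in control replicate 2 was the same as in 6-shogaol replicate 2 to 3 digits.

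**Figure D4:**
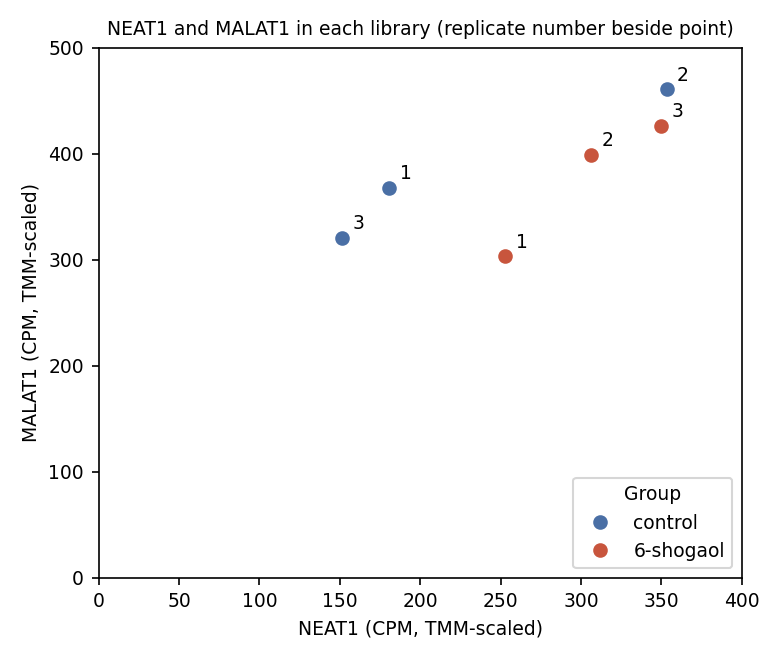
MALAT1 against NEAT1 in CPM, 1 point per library with its replicate number, controls in blue and 6-shogaol in red, both axes from 0. Control replicate 2 lies beside 6-shogaol replicate 3 at the upper right, at 353 and 350 CPM of NEAT1, away from the other controls at 181 and 152 CPM.

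Ordered by FPKM in controls, the members ran from NONO (131 ± 6.87) and HNRNPK (112 ± 2.84) through SFPQ (44.9 ± 0.863) and MALAT1 (36.4 ± 6.55) to TARDBP (10.5 ± 1.22), NEAT1 (8.42 ± 3.97), PSPC1 (6.84 ± 0.485) and RBM14 (5.29 ± 0.918), with the MATR3 entries at 15.4 ± 6.89 and 8.69 ± 4.47 (mean ± SD, n = 3). NONO lay above HNRNPK, HNRNPK above SFPQ, and SFPQ above MALAT1 in every control library, the last by a narrow margin of 44.1 against 43.6 in control replicate 2. From the higher MATR3 entry down through TARDBP, the other MATR3 entry and NEAT1 to PSPC1, each range overlapped the next in the order of means, and RBM14 lay below PSPC1 in every control library. With 6-shogaol the order of SFPQ and MALAT1 was the other way, with SFPQ at 25.02 ± 0.343 and MALAT1 at 36.3 ± 5.77 FPKM and no overlap. The place of NEAT1 depends on the gene length used, since its isoforms were not separated. That of MATR3 depends on how reads were divided between its entries. In CPM, which is not per length, controls had NEAT1 at 228.5 ± 109, TARDBP at 66.4 ± 8.06 and PSPC1 at 39.3 ± 2.88.

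The genes whose log2 CPM followed that of SFPQ most closely over the 6 libraries, among 11617 genes that have a symbol and average 5 CPM or more, were FZD2 (r = 0.998), HMGB3 (0.998), PCDHB14 (0.997), ZNF815P (0.997) and LGR5 (0.997). Their log2 fold changes were -0.25, -0.56, -0.54, -0.42 and -1.18. HMGB3, PCDHB14 and LGR5 were called lower (edgeR adjusted p = 0.00703, 0.021 and 0.00827), and because the SFPQ groups lie far apart a gene that differs between the groups will correlate with it. The genes closest to NEAT1 were EIF2AK3 (r = 0.966), SPTLC2 (0.965), C18orf25 (0.964), MTARC2 (0.964) and CMC2 (0.957), with log2 fold changes between 0.05 and 0.22. EdgeR did not call any of them. They are the highest of 11617 genes over 6 libraries, and whether such a search gives values this high by itself was not tested.

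The number of other paraspeckle proteins called, from lists that hold no member, changed with the fit. Among 41 tested of 42 listed, 1 was called lower and 0 higher by edgeR (2.44%, against 3.38% of all genes), with 3 higher and 13 lower at an unadjusted p under 0.05. Of 42 tested, DESeq2 called 5 lower and 0 higher, against 790 lower and 764 higher over all genes. In limma on log2(FPKM + 1) the counts were 2 lower and 0 higher of 39, against 316 and 444 over all genes. How many genes DESeq2 and limma tested in all is not given. Their shares therefore cannot be compared for this or the later lists. The share of all genes at an unadjusted p under 0.05 is not given. Unadjusted counts of this and the later lists therefore cannot be set beside it. The median log2 fold change of the 41 proteins was -0.11, and 31 of them lay below 0. The called gene was FAM98A, which belongs to a tRNA ligase complex and is reported in paraspeckles. It fell from 50.2, 58.9 and 59.6 CPM to 40.8, 38.7 and 38.2 CPM (edgeR log2 fold change -0.52, SE 0.09, adjusted p = 0.0335), and lost its call when control replicate 2, control replicate 3, 6-shogaol replicate 2 or 6-shogaol replicate 3 was left out. Of the 9 proteins in this set with a part in assembly, edgeR called 0, DESeq2 called 1 lower and limma called 0, while 5 were lower in edgeR before adjustment (p under 0.05). SMARCB1, a subunit of the SWI/SNF remodeller, had the largest difference among them (edgeR log2 fold change -0.40, SE 0.11, adjusted p = 0.101).

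Of 23 tested cleavage, polyadenylation, RNase P and RNase Z genes, which act on the ends of NEAT1 and MALAT1, edgeR called 0. Before adjustment 3 were higher and 5 lower at p under 0.05 in edgeR. DESeq2 called 0 and limma 1 higher, and the list median was -0.08. The largest value was that of RPP25, an RNase P subunit at 0.377 ± 0.121 and 0.20 ± 0.129 CPM (edgeR log2 fold change -0.90, SE 0.66, adjusted p = 0.509). Of 9 tested editing and double-stranded RNA binding genes edgeR called 0, DESeq2 called 2 lower and limma called 0, while 4 were lower in edgeR before adjustment at p under 0.05 (median -0.18). ADAR, the main adenosine deaminase of double-stranded RNA, stood at 502, 531 and 392 CPM in controls and at 390, 363 and 299 CPM with 6-shogaol, with control replicate 3 just above the highest treated library (edgeR log2 fold change -0.44, SE 0.14, adjusted p = 0.142). Of 10 RNA-binding proteins linked, like MATR3 and TARDBP, to amyotrophic lateral sclerosis, edgeR called 0. DESeq2 called 2 lower and limma 1 lower, while 1 was higher and 4 were lower in edgeR before adjustment at p under 0.05 (median -0.08). HNRNPA2B1, a splicing and RNA transport protein, stood at -0.36 (SE 0.08, edgeR adjusted p = 0.063).

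Nuclear speckle genes and factors reported to act on NEAT1 each included called genes. Of 15 nuclear speckle genes 1 rose and 2 fell in edgeR, against 3.38% called of all genes (median -0.000443), and DESeq2 and limma also called 1 higher and 2 lower. SRSF2, an SR splicing protein that marks the speckle, rose from 69.2, 70.3 and 61.2 CPM to 111, 108 and 121 CPM (edgeR log2 fold change 0.76, SE 0.08, adjusted p = 0.00832). ACIN1, a protein of splicing complexes and of chromatin condensation in apoptosis, fell from 279, 273 and 265 CPM to 209, 196 and 194 CPM (edgeR log2 fold change -0.45, SE 0.06, adjusted p = 0.0166), and was called without 6-shogaol replicate 1 but not without any other library. Of 9 transcription factors reported to act on NEAT1, 1 rose and 1 fell in edgeR, against the same 3.38% (median 0.14). The counts were 2 higher and 1 lower by DESeq2, and 1 higher and 0 lower by limma. EPAS1, which encodes the hypoxia factor HIF-2α, rose from 29.7, 30.2 and 30.9 CPM to 56.3, 61.7 and 60.0 CPM (edgeR log2 fold change 0.97, SE 0.07, adjusted p = 0.00358). STAT3 fell from 281, 288 and 283 CPM to 236, 203 and 213 CPM (edgeR log2 fold change -0.39, SE 0.07, adjusted p = 0.0383), and lost its call without any library other than 6-shogaol replicate 1 and in limma. The third called speckle gene was the splicing kinase CLK1 (log2 fold change -0.41), named after its value was seen.

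Among genes reported to respond to SFPQ or to its capture by NEAT1, 2 could be tested. CXCL8, a neutrophil chemokine, stood at 10.5, 8.21 and 9.42 CPM in controls and rose to 18.6, 19.3 and 22.3 CPM (log2 fold change 1.10, edgeR adjusted p = 0.0104), and was not called without control replicate 2 or 3. DDX58, which encodes the RNA sensor RIG-I, fell from 163, 160 and 155 CPM to 67.2, 59.0 and 77.0 CPM (log2 fold change -1.23, edgeR adjusted p = 0.0057). The genes went in opposite directions, and their relation to the SFPQ level was not tested.

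**Figure D5:**
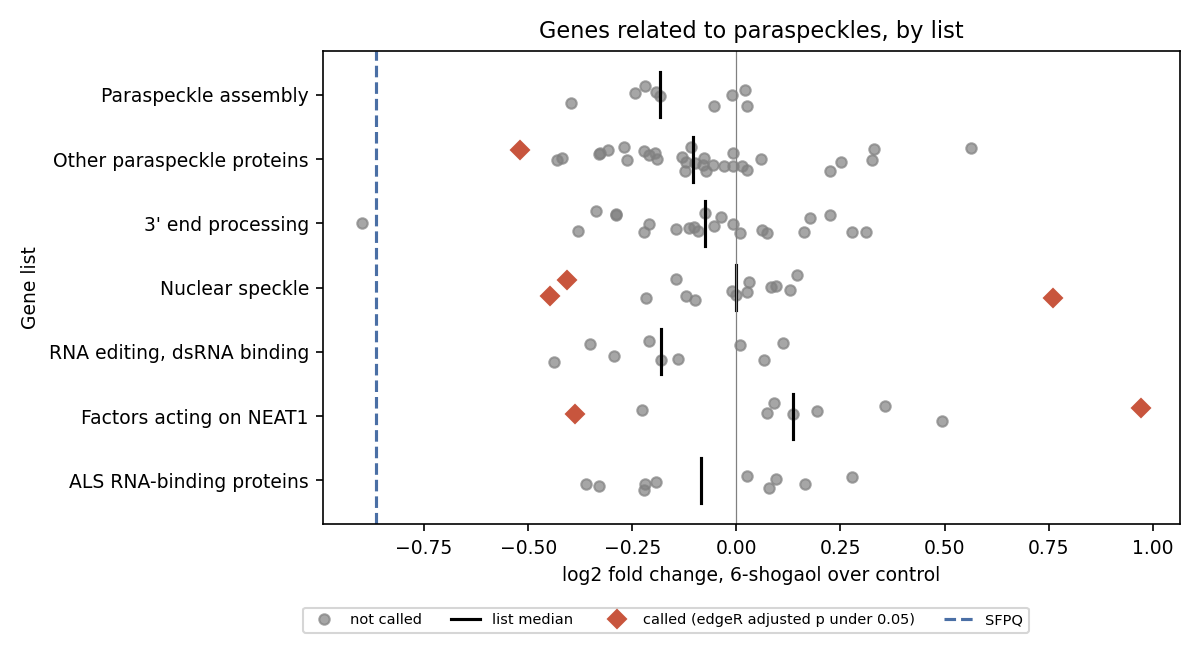
Fitted log2 fold change (6-shogaol over control) of each tested gene in 7 lists, grey circles for genes not called and red diamonds for called ones, with a black bar at each list's median and a dashed line at SFPQ. Called genes are 1 among other paraspeckle proteins, 3 in the nuclear speckle list and 2 among factors acting on NEAT1. In these 7 lists no called gene lies as low as SFPQ at -0.86. The list with CXCL8 and DDX58 is not drawn, and DDX58 was called at -1.23.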

How the data were processed

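RNA sequencing measured 6 libraries of U251 cells, 3 control and 3 treated, grouped and numbered by the sample titles. Per the labels' protocols, a SMARTER mRNA-Seq kit was used. The aligner, counter and strandedness are not given in the sources used here. Mouse builds (GRCm 38, mm 10) are named per the submitters' processing notes, but all 60612 deposited identifiers are human, 58394 of them in GENCODE 29 (GRCh38). The authors deposited raw counts per gene, and FPKM values per the file headers, with a copy of the counts that differed in 0 values.

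The tests used edgeR 4.0.16 on the counts, under R 4.3.3 (filterByExpr, TMM, glmQLFit, glmQLFTest, Benjamini-Hochberg, threshold 0.05). SE was taken as the size of the log2 fold change over the root of the F statistic. CPM values are TMM-scaled, and levels between genes use FPKM. A gene at 0 could have had 0.05 to 0.0689 CPM (3 counts, counting error only). No libraries of a group were copies of each other (chi-square over degrees of freedom at least 34.4). Same-numbered libraries did not deviate together (r = -0.0304, 0.0586 and -0.0365). These values gave no sign of pairing by number, but they cannot show that libraries were not prepared in pairs. The edgeR, limma and DESeq2 steps were tested on simulated data.

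Members and gene lists were chosen with earlier results of these data known. Named were all members, related entries (pseudogenes, readthrough) with a mean of at least 10 counts, per list up to 2 called genes of at least 5 CPM with the largest change and the largest the other way, or else the largest uncalled value, and the 5 genes most correlated with SFPQ and with NEAT1 (offset 0.5 CPM). The alternatives comprised DESeq2 1.42.0, RLE or upper-quartile scaling, other filters, the replicate block, leaving out each library, and limma 3.58.1 on log2(FPKM + 1) or log2(FPKM + 0.1), with a filter (FPKM of 1 in 3 libraries) or without. Summing the MATR3 entries was added after the data were seen.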

Additional observations from a re-analysis of the deposited data

How the results depend on the processing

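The SFPQ log2 fold change ran from -0.88 to -0.82 over the 16 alternatives, and from -0.88 to -0.84 without 1 library. The replicate block gave -0.86, not past the threshold. SFPQ was chosen on this difference, so these values describe it and are no support for it. With the block 3 genes in all were called higher, 0 lower, 0 members and 0 other paraspeckle proteins. The block was the replicate number, and whether libraries with the same number were prepared together is not known. Over all genes DESeq2 called 764 higher and 790 lower, edgeR with no filter 183 and 195, and limma with no filter 159 and 118. Without 1 library the counts ran from 44 to 480 higher and from 54 to 532 lower, the highest without 6-shogaol replicate 1 and the lowest without control replicate 2. Called members were 1 in each of those fits, and other paraspeckle proteins ran from 0 (without replicate 2 or replicate 3 of either group) to 5 (without 6-shogaol replicate 1). These proteins numbered 2 with RLE scaling, 2 with upper-quartile scaling, 5 in DESeq2, 3 with the filter of 1 CPM, 2 in limma on log2(FPKM + 1) and 0 in limma with no filter. The cause of these shifts was not tested. Leaving out a library, or adding the block, reduces the residual degrees of freedom, and the part of this in the shifts was not tested either. Uncalled log2 fold changes near 0 changed sign in some alternatives: TARDBP in 13, each MATR3 entry in 2, MALAT1 in 2 and PSPC1 in 1. The smallest count of any member in a library was 1619. The part of library depth in the spread of the members was not tested.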

Other observations

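The genes beside SFPQ on chromosome 1 were examined after the values were seen. Of the 10 nearest tested genes, 5 on each side, edgeR called 0, with 2 higher and 1 lower at an unadjusted p under 0.05. DESeq2 called 1 higher and 1 lower, and limma on log2(FPKM + 1) called 0. The immediate neighbours are zinc finger genes of the MYM type. ZMYM1, before SFPQ on the chromosome, stood at 31.9 CPM in controls and 36.9 CPM with 6-shogaol (log2 fold change 0.21, SE 0.08), and ZMYM4, after it, at 127 and 126 CPM (log2 fold change -0.01, SE 0.06). NCDN, which encodes neurochondrin, had the lowest value of the 10 (edgeR log2 fold change -0.37, SE 0.09, adjusted p = 0.0733), and AC004865, at under 0.5 CPM, the highest (0.54, SE 0.82).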
